A study of Mus musculus with 12 samples.

Results

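The KDM3 and KDM4 histone demethylases were taken as 7 named genes, Kdm3a, Kdm3b, Jmjd1c, Kdm4a, Kdm4b, Kdm4c and Kdm4d, out of 21631 genes that code for protein on the 19 mouse autosomes and X. A peak was assigned to a gene when it overlapped the gene's span in RefSeq (build GRCm38.p6, the same build as mm10) or the 10 kb on either side. Binding of HIF1A, the part of the HIF-1 dimer whose stability depends on oxygen, and of ARNT, its constitutive partner, was mapped by chromatin immunoprecipitation and sequencing (ChIP-seq). The cells were N1E115, an established neuroblastoma line of the mouse, NOS1 positive per the labels, kept for 3 days at ambient pressure with 5% CO2. The 8 ChIP samples formed 4 groups of 2 replicates: HIF1A at 4% O2, HIF1A at 20% O2, ARNT at 4% O2 and ARNT at 20% O2. All groups share 1 cell line and carry no genetic change named in the labels. Nothing in the labels says that the replicates of a group were separate cultures. The p-values therefore cover the spread between these libraries alone, and that spread may be technical. The 4 input samples, 2 at each oxygen level, carry no peak list and were not analysed here.

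The 8 lists held 1808 to 42701 peaks, and 61.1% of all protein-coding genes had a peak in at least 1 of them. Each peak carries a score given by the authors. Its scale is not named, so it was turned into a percentile within its list, with 100 for the highest peak. Read counts were not used here and sequencing depth is unknown. Lists of different lengths therefore differ in how many weak sites they hold. Both HIF1A replicate 2 lists hold 1 bp positions, read as summits and widened by 75 bp on each side for overlaps. Per the file headers, all 4 replicate 1 samples shared a lane of a flow cell. Of the ARNT replicate 2 samples, that at 4% O2 ran on another flow cell and that at 20% O2 on another lane, and the HIF1A replicate 2 lists carry no header.

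KDM3 and KDM4 enzymes belong to the JmjC family of dioxygenases, which remove methyl groups from lysines of histones and need molecular oxygen, iron and 2-oxoglutarate to do so. KDM3 enzymes act on mono- and dimethylated lysine 9 of histone H3, a mark of silent chromatin. KDM4 enzymes act on di- and trimethylated lysine 9, and several members also act on lysine 36 of H3. In human cancer cell lines KDM3A and KDM4B are known as genes that HIF-1 induces in hypoxia. HIF-1 binds the core sequences ACGTG and GCGTG.

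The 250 bases before 4 annotated start sites are shown because a peak of at least 1 list overlapped each of them. They are RefSeq sequences of GRCm38.p6, 5′ to 3′ on the gene's own strand, with every ACGTG or GCGTG, on either strand, in capitals. The windows are chr6:71632918-71633167 (minus strand) for Kdm3a and chr10:67185500-67185749 (plus strand) for a start site inside Jmjd1c. Those of Kdm4c, chr4:74251629-74251878 (plus strand), and Kdm4d, chr9:14500483-14500732 (minus strand), follow.
Kdm3a: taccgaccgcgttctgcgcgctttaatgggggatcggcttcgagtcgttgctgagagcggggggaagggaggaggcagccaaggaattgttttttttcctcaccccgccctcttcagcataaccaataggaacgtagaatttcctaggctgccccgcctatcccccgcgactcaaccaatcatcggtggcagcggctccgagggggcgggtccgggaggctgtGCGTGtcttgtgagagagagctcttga
Jmjd1c: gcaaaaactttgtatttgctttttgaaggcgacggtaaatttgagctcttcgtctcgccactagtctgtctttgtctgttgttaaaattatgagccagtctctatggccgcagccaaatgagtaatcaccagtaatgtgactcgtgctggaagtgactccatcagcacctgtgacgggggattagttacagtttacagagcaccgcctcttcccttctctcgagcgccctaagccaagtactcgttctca
Kdm4c: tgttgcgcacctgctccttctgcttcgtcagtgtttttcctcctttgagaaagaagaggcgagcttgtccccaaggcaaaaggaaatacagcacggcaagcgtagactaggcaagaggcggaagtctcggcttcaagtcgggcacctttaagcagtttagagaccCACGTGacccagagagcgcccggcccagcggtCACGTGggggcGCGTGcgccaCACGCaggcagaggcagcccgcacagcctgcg
Kdm4d: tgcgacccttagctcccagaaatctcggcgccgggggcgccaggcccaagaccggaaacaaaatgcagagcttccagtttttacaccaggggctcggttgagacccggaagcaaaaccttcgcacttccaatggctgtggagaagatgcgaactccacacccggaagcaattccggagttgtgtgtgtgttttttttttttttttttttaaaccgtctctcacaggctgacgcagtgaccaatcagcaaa

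A further Kdm3a window, which begins at another start site and overlaps the one shown, held no core and was overlapped by 3 peaks. The Kdm3a window shown held 1 core, a GCGTG that begins at position -27 from the start site. The Kdm4c window held 6 matches that begin between position -85 and position -32. They comprise 2 palindromic CACGTG elements, each of which matches ACGTG on both strands, and 2 GCGTG. The Jmjd1c and Kdm4d windows held none. Of 32585 upstream windows of this length on the same chromosomes, 38.8% held a core, and 6.06% held CACGTG. Of the 2131 windows that overlapped regions of both antibodies at 4% O2, 82.1% held a core, against 33.5% of the 28231 windows without a region in any group. Base composition was not matched between these sets. The table of upstream sequences matched 5 of the 7 members. Another Jmjd1c window, before the start site at position 67127088, held 2 GCGTG and was overlapped by no peak.

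Kdm3a and Kdm4b held some of the highest peaks of both antibodies at 4% O2. Jmjd1c held a HIF1A site of middle rank that both replicates shared, and the other 4 members held no site shared by both replicates of a group. A reproducible region is a merged stretch that holds peaks of replicate 1 and of replicate 2. HIF1A had one at 3 of the 7 members at 4% O2 (Kdm3a, Jmjd1c and Kdm4b) and at 2 at 20% O2 (Kdm3a and Kdm4b). The background over all protein-coding genes was 34.2% at 4% O2 and 10% at 20% O2. ARNT had one at 2 members at 4% O2 (Kdm3a and Kdm4b) and at 1 at 20% O2 (Kdm4b), against backgrounds of 27.7% and 7.11%. Both antibodies had one at 2 members at 4% O2 (Kdm3a and Kdm4b, background 24.0%) and at 1 at 20% O2 (Kdm4b, background 3.15%). With 7 genes, nothing is read from these counts about the list as a whole. HIF1A had a region at 4% and none at 20% O2 at Jmjd1c alone (background 25.9%), and ARNT at Kdm3a alone (background 22.9%). Neither antibody had a member with a region at 20% and none at 4% O2, where the backgrounds were 1.76% for HIF1A and 2.26% for ARNT.

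The counts depend on the lists. With the replicate 1 lists alone, HIF1A had a peak at 7 members at 4% O2 and 2 at 20% O2, against backgrounds of 56.9% and 11.3%, and ARNT at 5 and 5, against 49.3% and 22.3%. With the replicate 2 lists alone, HIF1A had a peak at 3 and 2 members, against 34.8% and 31.7%, and ARNT at 4 and 1, against 35.5% and 7.60%. Among the 1808 highest peaks of each list, HIF1A had regions at 2 members at 4% O2 and at 0 at 20% O2, where 6.65% and 2.94% of all genes had one.

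**Figure D1:**
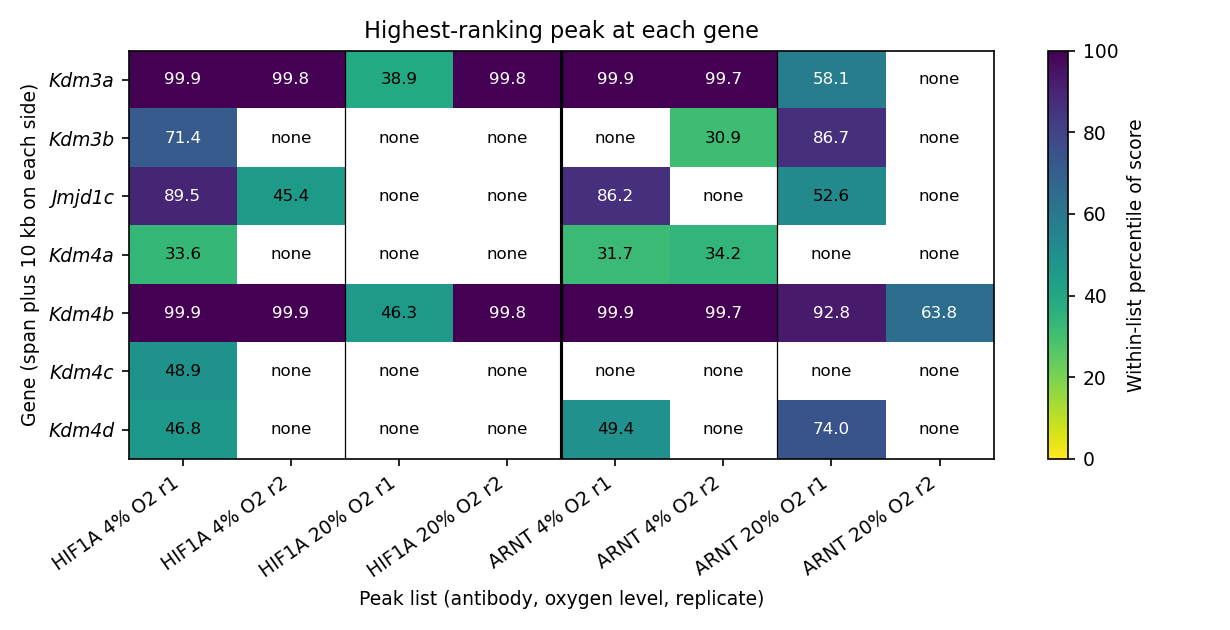
Highest within-list percentile of a peak in each gene or the 10 kb on either side, for the 8 lists (antibody, oxygen level, replicate r1 or r2). Cells marked "none" had no peak. At 4% O2 the Kdm3a and Kdm4b rows stay above 99 in all 4 lists, and no cell of the other genes exceeds 89.5.

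Kdm3a (chromosome 6, 71588970 to 71632990, minus strand) encodes a demethylase of H3 lysine 9 that in mice is known for roles in spermatogenesis and metabolism. Its highest HIF1A percentiles were 99.9 and 99.8 at 4% O2, against 38.9 and 99.8 at 20% O2, for replicates 1 and 2. The ARNT percentiles were 99.9 and 99.7 at 4% O2, against 58.1 in replicate 1 and no peak in replicate 2 at 20% O2. All 4 lists at 4% O2 thus lay near the top. The lists at 20% O2 disagreed, and HIF1A replicate 2 ranked the site as high at 20% as at 4% O2. By rank, the Kdm3a peak was number 25 of 42701 and 32 of 13655 in the HIF1A lists at 4% O2, and 3289 of 5393 and 23 of 13386 at 20% O2. In the ARNT lists it was number 28 of 24942 and 26 of 9920 at 4% O2, and 3034 of 7252 in the 1 list at 20% O2 that held it.

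These peaks form 1 site at the start of the gene. HIF1A replicate 1 at 4% O2 gave an interval of 1965 bp there (71632796 to 71634760). At 20% O2 its interval at the same site was 201 bp wide (71633385 to 71633585). ARNT intervals were 1125 and 1208 bp wide at 4% O2 and at most 184 bp at 20% O2. Whole lists also held narrower intervals at 20% O2, where the widest was 746 to 866 bp, against 1892 to 4957 bp at 4% O2. Within their own lists, the Kdm3a intervals at 4% O2 were wider than 99.57% to 99.96% of entries. Those of 201 and 184 bp at 20% O2 were wider than 70.42% and 72.95%. The summits of HIF1A replicate 2 lay at 71633443 at 4% O2 and 71633457 at 20% O2, 14 bp apart. The authors' scores at these summits were 792 and 244, on a scale that may differ between lists. Both summits lie beyond the upstream sequence shown, 526 and 540 bp before the nearest annotated start site. The remaining peaks of the gene were weaker. HIF1A replicate 1 at 4% O2 had 3 further peaks at percentiles of 15.1 to 44.2, 2 inside the gene and 1 upstream. A second HIF1A summit of replicate 2 at 4% O2 lay at 71634047, at percentile 74.4, and a second ARNT peak of replicate 1 at 4% O2 at 71634000 to 71634242, at percentile 66.1. The other protein-coding gene in the window, Chmp3, lies 51046 bp from the centre of the start site, past the other end of Kdm3a.

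**Figure D2:**
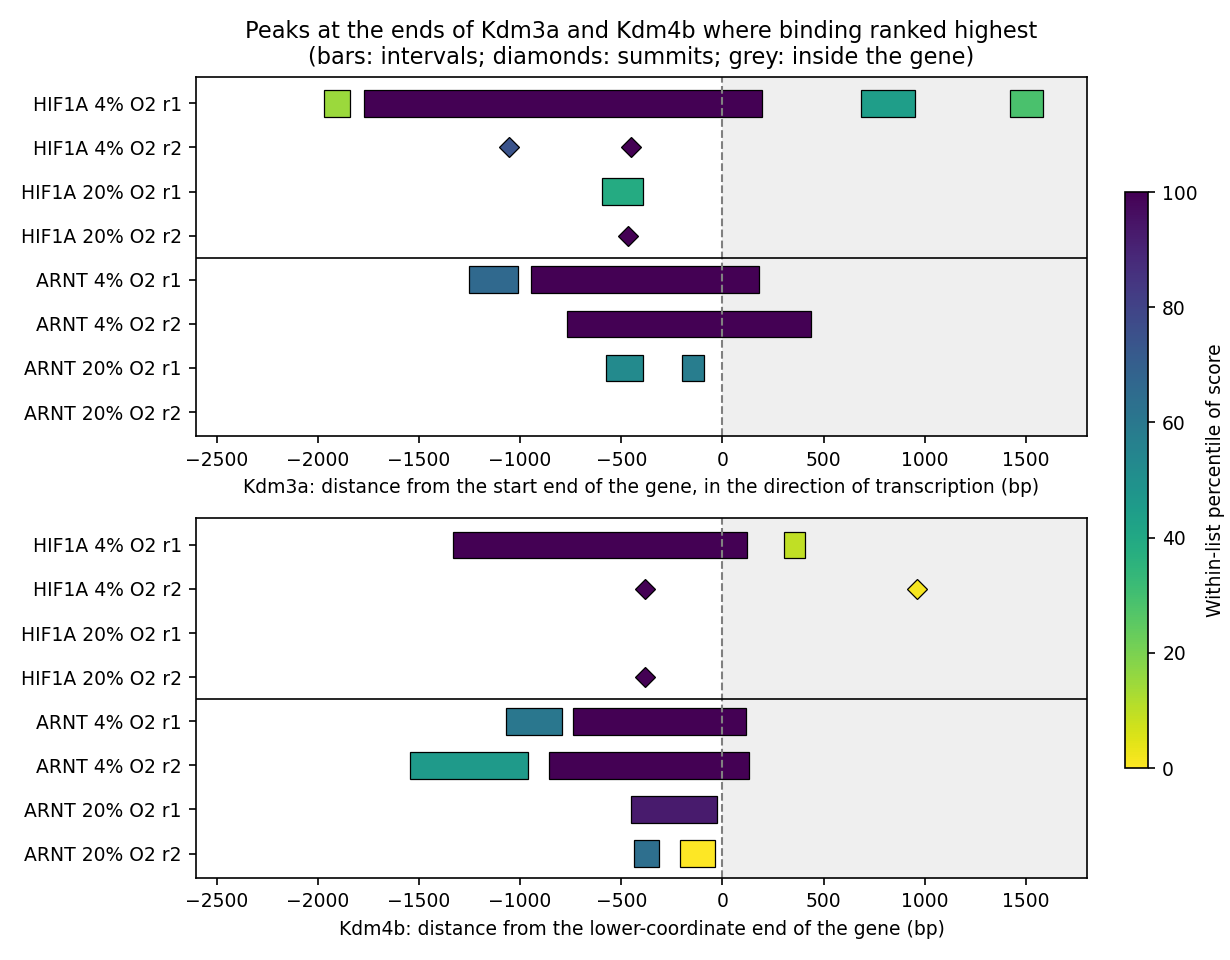
Peaks around the ends of Kdm3a and Kdm4b that held their highest peaks, by list, with distance from the gene's end in bp on the x axis. Bars are intervals, diamonds are 1 bp summits, colour is the within-list percentile and grey marks the gene. The darkest bars at 4% O2 are 857 to 1965 bp wide, and the bars at 20% O2 are 106 to 428 bp wide. Over whole lists the widest interval was 1892 to 4957 bp at 4% O2 and 746 to 866 bp at 20% O2.

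Kdm4b (chromosome 17, 56325970 to 56403774) encodes a demethylase of trimethylated H3 lysine 9. Its highest HIF1A percentiles were 99.9 and 99.9 at 4% O2, against 46.3 and 99.8 at 20% O2. Its ARNT percentiles were 99.9 and 99.7 at 4% O2, against 92.8 and 63.8 at 20% O2. For both antibodies the lists at 4% O2 did not overlap with those at 20% O2, although HIF1A replicate 2 at 20% O2 came close. Such a separation, in 1 direction for both antibodies, was found in 27.1% of the 13224 genes with a peak. Kdm4b was the 1 member with a peak in all 8 lists (background 2.38%). The table of start sites used here does not hold Kdm4b, so positions are given from its lower-coordinate end, which faces Uhrf1.

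The highest peaks of Kdm4b sat across that end. HIF1A replicate 1 at 4% O2 had an interval of 1453 bp (56324641 to 56326093), number 28 of 42701, and replicate 2 a summit at 56325589, number 19 of 13655. At 20% O2 replicate 2 had a summit at 56325588, 1 bp away and number 32 of 13386, and replicate 1 had no peak there. The 46.3 of that replicate 1 list comes from another site, 42592 bp into the gene. ARNT had intervals of 857 and 990 bp at 4% O2, numbers 37 of 24942 and 28 of 9920, and its highest intervals at 20% O2 were 428 and 123 bp wide. Within their own lists these were wider than 99.88% and 99.12% of intervals at 4% O2, and 98.83% and 42.7% at 20% O2. The merged site is 1777 bp from Uhrf1 and 707 bp from the end of Kdm4b by its centre.

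Kdm4b differed from Kdm3a in having several sites, 11 against 4, in a longer span of 77.8 kb against 44.0 kb. Of the 11, 7 had peaks in both replicates of at least 1 group, against 1 of the 4 at Kdm3a. Next to the site at the end, the highest lay outside the gene past its upper end, at 56406814 to 56407215. There the percentiles were 97.7 and 94.6 for HIF1A at 4% O2, and 71.0 in replicate 2 alone at 20% O2. For ARNT they were 96.7 and 92.1 at 4% O2, with no peak at 20% O2. The centre of this site is 3240 bp from Kdm4b and 5412 bp from Ptprs, so the gene it belongs to cannot be told from position. The next site, at 56407471 to 56407819, had HIF1A percentiles of 92.8 and 63.4 at 4% O2 and 3.74 in replicate 2 alone at 20% O2. ARNT had a peak there in replicate 1 at 4% O2 only, at 91.1.

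Inside Kdm4b, 2 sites were found in all 4 lists at 4% O2 and in none at 20% O2. One, at 56337108 to 56337453, had percentiles of 82.8 and 56.6 for HIF1A and 38.5 and 71.5 for ARNT. The other, at 56360396 to 56360653, had 91.8 and 7.15 for HIF1A and 30.0 and 18.3 for ARNT. The replicates therefore ranked these sites very differently. A further site inside the gene, at 56368348 to 56368776, was found in all 4 lists at 20% O2 and in only the replicate 1 lists at 4% O2. Its HIF1A percentiles were 87.3 in replicate 1 at 4% O2, against 46.3 and 71.5 at 20% O2, and those of ARNT 60.8 in replicate 1 at 4% O2, against 34.1 and 6.75 at 20% O2. Both replicate 2 lists at 4% O2 lacked it although both replicate 2 lists at 20% O2 held it. The other sites of Kdm4b had percentiles of at most 36.03 at 4% O2 and no peak at 20% O2.

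**Figure D3:**
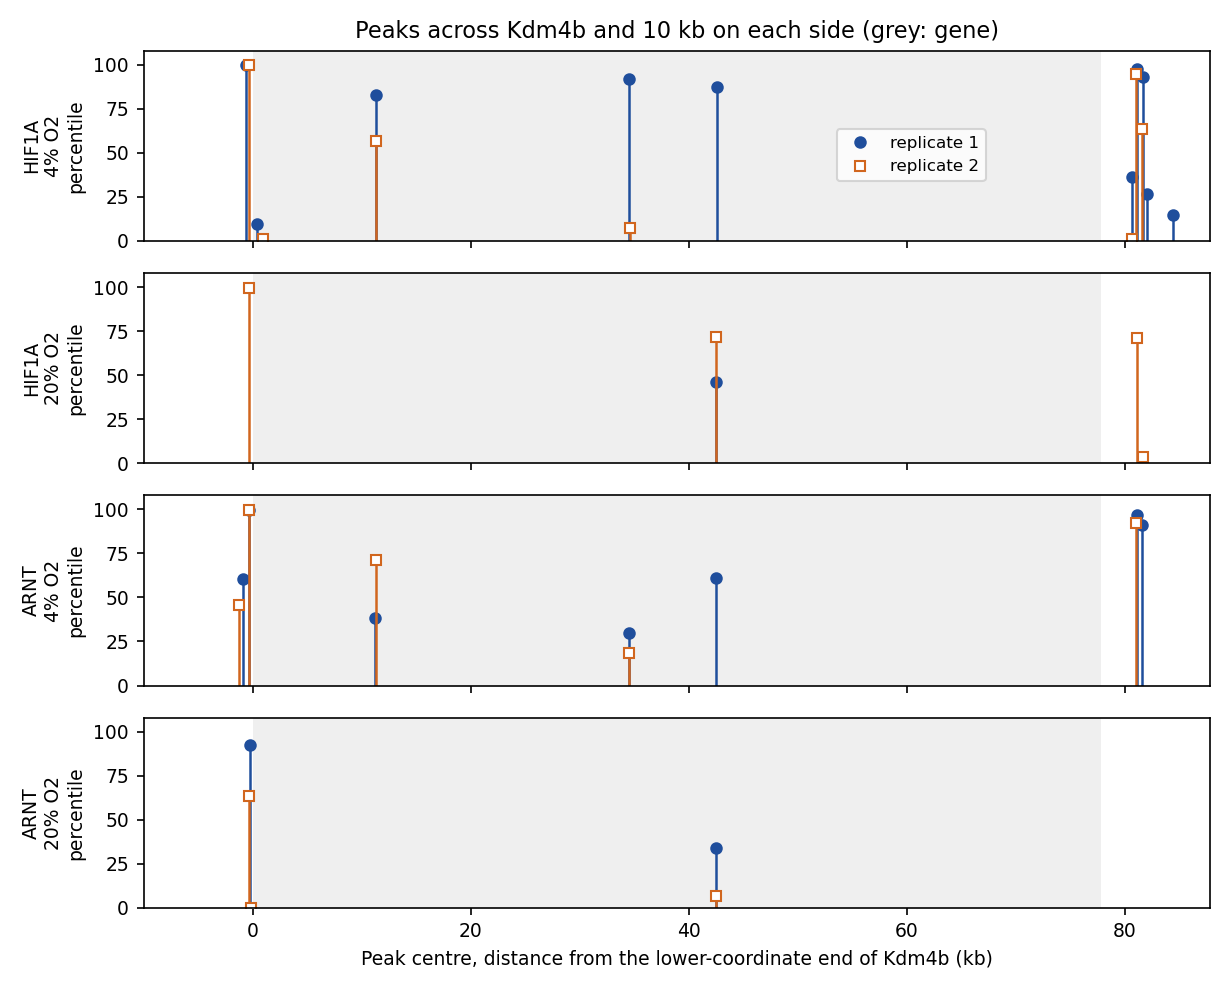
Within-list percentile of each peak in Kdm4b and 10 kb on each side, against the distance of the peak's centre from the lower-coordinate end of the gene (kb), in a panel for each antibody and oxygen level. Filled circles are replicate 1, open squares replicate 2, and grey marks the gene. Peaks stand at the left end in every panel, and those past the right end reach 97.7 for HIF1A and 96.7 for ARNT at 4% O2.

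Jmjd1c (chromosome 10, 67096351 to 67256326, plus strand) encodes a KDM3 relative whose demethylase activity is debated. Its highest HIF1A percentiles were 89.5 and 45.4 at 4% O2, with no peak at 20% O2. For ARNT replicate 1 they were 86.2 at 4% O2 and 52.6 at 20% O2, and replicate 2 had no peak at either level. HIF1A was thus the antibody with a reproducible region, and ARNT rested on 1 library. The region lay at 67185584 to 67185780, over the internal start site at 67185750, where the summit of HIF1A replicate 2 was 90 bp upstream. It ranked number 6040 of the 12704 HIF1A regions at 4% O2, far below those of Kdm4b (19) and Kdm3a (29) at the gene ends. The upstream window of this site, printed above, holds no core. At 20% O2 ARNT replicate 1 had a peak at the same place at percentile 34.1. The gene's 52.6 came from another site, 19589 bp inside it. At the lower end of the gene, where Reep3 overlaps Jmjd1c, HIF1A and ARNT replicate 1 at 4% O2 had peaks at percentiles of 55.4 and 6.85.

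Kdm3b (chromosome 18, 34777008 to 34839370), the third KDM3 gene and also a demethylase of H3 lysine 9, had no reproducible region. HIF1A had 1 peak, in replicate 1 at 4% O2, at percentile 71.4. ARNT had 1 at 30.9 in replicate 2 at 4% O2, and 86.7 was its highest in replicate 1 at 20% O2. These 3 peaks coincide, within 34839223 to 34839362, at the upper end of the gene, and the centre of the site is 1297 bp from the next gene, Reep2. A second ARNT peak of replicate 1 at 20% O2, at 48.2, lay at 34840494 to 34840639 and overlapped the lower end of Reep2, which begins at 34840589. By percentile, Kdm3b was therefore the KDM3 gene with its highest value at 20% O2, in a single list. By number in the list, Kdm3a (23 of 13386) and Jmjd1c (3397 of 7252) also stood highest in a list at 20% O2.

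Kdm4a, Kdm4c and Kdm4d had no reproducible region in any group. Kdm4a (chromosome 4, 118136957 to 118180090, minus strand), a demethylase of H3 lysines 9 and 36, had 33.6 in HIF1A replicate 1 and 31.7 and 34.2 in the ARNT lists at 4% O2, and no peak at 20% O2. Its 3 peaks lay at 3 different sites. The ARNT peak of replicate 1 was centred 398 bp inside its start. That of replicate 2 overlapped the window at an annotated start site of the neighbouring gene St3gal3, at the upper end of St3gal3. By its centre this ARNT peak lies inside St3gal3 and 2058 bp outside Kdm4a, 45191 bp from the start of Kdm4a. By position it is thus a St3gal3 peak, and which gene it acts on was not tested.

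Kdm4c (chromosome 4, 74242497 to 74405864, plus strand), known in humans also as GASC1, had 2 peaks, both in HIF1A replicate 1 at 4% O2, at percentiles of 48.9 and 22.3. The higher, at 74251797 to 74251918, overlaps the printed window with the 6 cores. Its rank there was 21615 of 42701, and the other 7 lists held no peak at Kdm4c. Kdm4c is with 163.4 kb also the longest of the 7 genes.

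Kdm4d (chromosome 9, 14462548 to 14500522, minus strand) encodes a smaller KDM4 enzyme that acts on H3 lysine 9. Its peaks formed 1 site at its start, in the replicate 1 lists alone. HIF1A had 46.8 at 4% O2 and no peak at 20% O2. ARNT had 49.4 at 4% O2 and 74.0 at 20% O2. The site, at 14500430 to 14500651, also covers the lower end of the neighbouring gene Cwc15 at 14500604, so the gene it belongs to cannot be told from position. The printed window holds no core.

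Against all protein-coding genes the members fell into a pair at the extreme and a group in the middle. The mean of the highest HIF1A percentile over both lists at 4% O2 was 99.9 ± 0.0485 (SD, n = 2) for Kdm4b and 99.9 ± 0.121 for Kdm3a, and 25 and 35 genes of 21631 reached as high. For ARNT at 4% O2 it was 99.8 ± 0.0904 for Kdm4b and 99.8 ± 0.102 for Kdm3a, and 38 and 31 genes reached as high. Neighbouring genes can share a peak in these counts. Kdm3a and Kdm4b did not differ beyond this spread. Jmjd1c came next at 67.4 ± 31.2 for HIF1A and 43.1 ± 61.0 for ARNT. Kdm3b had 35.7 ± 50.5 for HIF1A and 15.4 ± 21.8 for ARNT. Kdm4a had 16.8 ± 23.7 for HIF1A and 33.0 ± 1.78 for ARNT, Kdm4c 24.5 ± 34.6 and 0 in both lists, and Kdm4d 23.4 ± 33.1 and 24.7 ± 34.9. For HIF1A the order of these 5 is within the spread between replicates, with 1 exception. Both Jmjd1c values (89.5 and 45.4) lie above those of Kdm4a (33.6 and no peak). For ARNT it is too, except that both Kdm4a values (31.7 and 34.2) lie above Kdm3b and Kdm4c. These Kdm4a values come from different sites, so their small spread is not agreement on a site. The 34.2 comes from a site that overlaps a start window of St3gal3. Kdm3b had no ARNT peak in replicate 1 and 30.9 in replicate 2, and Kdm4c had no ARNT peak. The medians over all genes were 16.8 for HIF1A and 8.21 for ARNT at 4% O2.

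**Figure D4:**
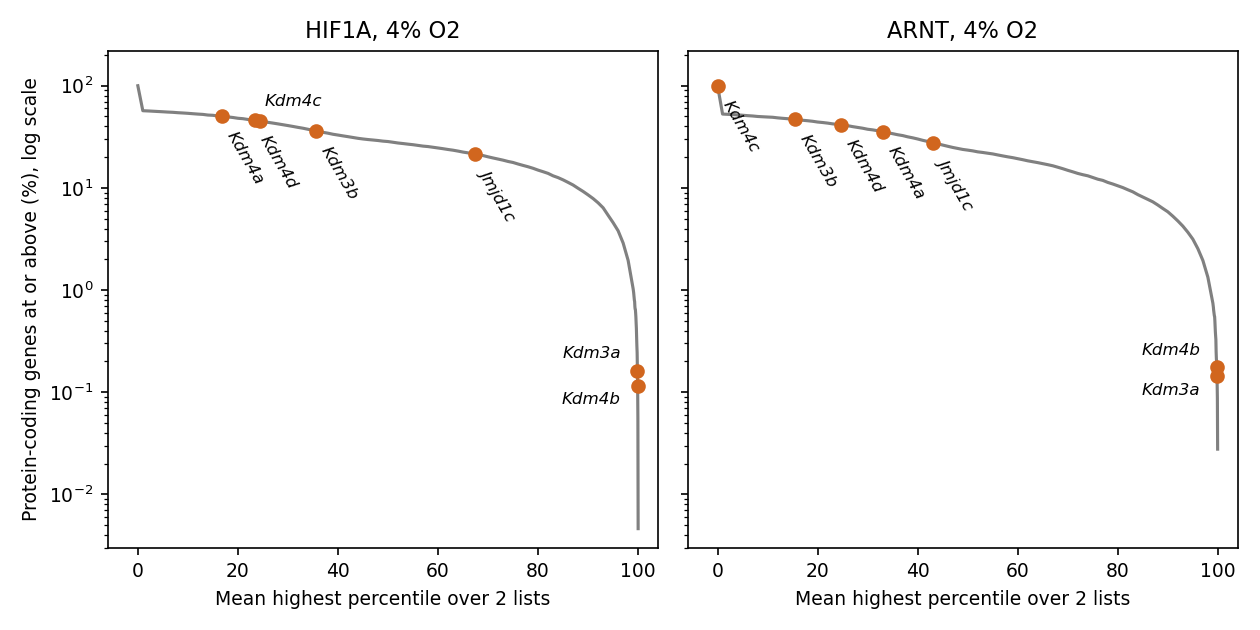
Percent of protein-coding genes (log scale) whose mean highest percentile over the 2 lists at 4% O2 is at or above the value on the x axis, for HIF1A and ARNT. Points are the 7 members. Kdm3a and Kdm4b sit where 0.116% to 0.176% of genes reach as high, and the others where at least 21.5% do.

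The oxygen levels were compared by the difference in highest percentile, 4% minus 20% O2, averaged over both antibodies, with 0 for a list without a peak. The difference was 50.6 points for Kdm3a (means 99.8 at 4% and 49.2 at 20% O2, higher at 4% O2 in 3 of 4 pairs of lists; two-sided exact permutation test within antibody, p = 0.111, adjusted p = 0.343). It was 24.2 points for Kdm4b (means 99.8 and 75.6, higher at 4% O2 in 4 of 4 pairs; exact permutation p = 0.056, the smallest that 36 arrangements allow, adjusted p = 0.205). Each value is the highest of a gene in a list, so the sites behind a difference can differ between lists. For Kdm4b, the 46.3 of HIF1A replicate 1 at 20% O2 comes from a site inside the gene. That list had no peak at the lower-coordinate end, so 24.2 points is not the difference at that end. The Kdm4b difference was 49.4 points with the gene span alone and 40.2 with the 1808 highest peaks of each list. With the span alone, all 20% O2 peaks of the site at its lower-coordinate end fell outside. So did the HIF1A replicate 2 summit there at 4% O2. The highest HIF1A replicate 1 and ARNT intervals at 4% O2 crossed that end and were kept. Jmjd1c had 42.1 points (exact permutation p = 0.278) and Kdm4a 24.9 (exact permutation p = 0.167), and both were 0 with the 1808 highest peaks of each list. Jmjd1c had 61.6 points with replicate 1 alone and 22.7 with replicate 2 alone. Its ARNT replicate 1 values, 86.2 at 4% O2 and 52.6 at 20% O2, come from different sites. Kdm4c had 12.2 points, Kdm4d 5.55 and Kdm3b 3.90 (exact permutation p = 1 for each). Of the 13224 genes with a peak, 89.3% had a difference above 0, with a median of 25.0 points. That all 7 members were above 0 is thus near the background, and the Kdm4b value with flanks of 10 kb lay close to the median. The smallest p that the exact permutation test allows was reached by 27.1% of the 13224 genes. None of the 13224 genes passed an adjusted p of 0.05 (0.00%), and 0 had an unadjusted p under 0.05, which this design cannot reach.

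For Kdm3a the difference was 30.5 points in HIF1A and 70.8 in ARNT, and for Kdm4b 26.9 and 21.5. Within the replicate 1 samples, which shared a lane, it was 51.4 for Kdm3a and 30.4 for Kdm4b. With replicate 2 alone it was 49.8 for Kdm3a and 18.01 for Kdm4b. Counted instead as peaks per 1000 peaks of a list, the difference was -0.0287 for Kdm3a and -0.222 for Kdm4b, opposite in sign to the percentile difference (exact permutation p = 0.778 for Kdm3a and 0.889 for Kdm4b).

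The antibodies were compared in the same way, HIF1A minus ARNT. The difference was 20.2 points for Kdm3a (means 84.6 for HIF1A and 64.4 for ARNT, higher in HIF1A in 3 of 4 pairs; exact permutation p = 0.444) and -2.58 for Kdm4b (means 86.5 and 89.0, higher in HIF1A in 3 of 4 pairs; exact permutation p = 1). The adjusted p was 1 for all 7 members. The sign depended on the replicate for Kdm3a, Kdm4b, Jmjd1c and Kdm4a. Kdm3a had -9.54 points with replicate 1 alone and 49.9 with replicate 2 alone, and Kdm4b -23.2 and 18.05. Over all 13224 genes 68.3% were higher in HIF1A and 0 passed an adjusted p of 0.05 (0.00%) or an unadjusted p under 0.05.

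By the Euclidean distance of the highest percentiles over the 8 lists, the genes most like Kdm3a were Spsb2 and Tpi1, which tied at 1.81 and had the same values as each other in all 8 lists. Those most like Kdm4b were Plekhm3 (9.81) and Ivd (17.0), and those most like Jmjd1c were Kbtbd4 and Ndufs3, which tied at 15.9. Kbtbd4 and Ndufs3 also had the same values as each other in all 8 lists. The genes of such a tied pair may share the same peaks, so they need not be separate examples. These distances describe the 8 lists only.

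Among 24 other lysine demethylase and JmjC genes, HIF1A had a region at 13 at 4% O2 and 4 at 20% O2, and ARNT at 13 and 1. The highest by mean percentile at 4% O2 were Kdm6b at 99.8, a demethylase of H3 lysine 27, Jmjd6 at 99.6, and Kdm5b at 98.1, a demethylase of H3 lysine 4. The members' median was 25.6 on this measure, against 62.1 for these 24 genes and 15.1 for all protein-coding genes. Among 16 genes for enzymes that methylate H3 lysine 9 or 36, HIF1A had a region at 10 at 4% O2 and 2 at 20% O2, and ARNT at 6 and 3. The same backgrounds apply to these counts. Of the 16, the highest were Nsd1 at 95.3 and Nsd3 at 89.4, which methylate lysine 36, and Setdb1 at 74.4, which methylates lysine 9. All 7 members had a peak in at least 1 list, and 4 of the 24 and 3 of the 16 had none. Of all protein-coding genes, 61.1% had a peak in at least 1 list. With 7 genes, nothing is read from this count about the list as a whole.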

How the data were processed

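The submitters' processing notes name the tools BWA, Picard and MACS2 and the build mm10, without versions. The authors called peaks per ChIP sample against 1 input of the same oxygen level, per the names of the deposited lists: input 5 for HIF1A replicate 2 and input 4 for all others. The deposited lists hold positions and a score, the authors' own value per peak. Reads of both HIF1A replicate 2 samples were combined from a pair of runs, per the series' design text.

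Groups came from sample titles. Percentiles, overlaps (1 bp), regions and exact permutation tests were computed in Python 3.11.15 with numpy 2.4.6 and pandas 2.3.3, and checked on simulated lists. Tests ran over all genes with a peak, with Benjamini-Hochberg adjustment. Named sites had peaks in both replicates of a group, up to 6 per gene. Other peaks described were chosen after their values were seen. Named relatives were the 3 highest of each gene list, and the 2 most alike genes by distance. The members, gene lists and tests were chosen with earlier results of these data known. Alternatives were the flank, summit width, overlap, list length, single replicates, replicate block and peaks per 1000. Exon positions were not used here. Surrounding sequence of the peaks was not analysed here, since no genome was used.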

Additional observations from a re-analysis of the deposited data

How the results depend on the processing

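The regions at Kdm3a and Kdm4b at 4% O2 stayed for both antibodies with gene spans alone, 50 kb flanks, the 1808 highest peaks, other summit widths and an overlap of 50%. With spans alone, HIF1A at 20% O2 had 1 member (6.56% of all genes). With 50 kb flanks, ARNT had 4 at 4% and 2 at 20% O2 (46.0% and 14.7% of all genes). With the 1808 highest peaks, HIF1A at 20% O2 had 0 (2.94% of all genes). Leaving out a replicate gave 3 to 7 members for HIF1A (34.8% to 56.9% of all genes) and 4 to 5 for ARNT (35.5% to 49.3%) at 4% O2. At 20% O2 it gave 2 to 2 for HIF1A (11.3% to 31.7%) and 1 to 5 for ARNT (7.6% to 22.3%). The oxygen difference of Kdm3b turned to -27.4 with 50 kb flanks and -11.6 with the 1808 highest peaks, and was -7.65 to 15.4 with a replicate left out. As peaks per 1000 it was -0.0379 for Kdm3b, -0.0287 for Kdm3a, -0.0216 for Jmjd1c, -0.222 for Kdm4b and -0.0186 for Kdm4d. The antibody difference with a replicate left out was -24.6 to 22.7 for Jmjd1c, -23.2 to 18.05 for Kdm4b, -9.54 to 49.9 for Kdm3a and -17.1 to 0.919 for Kdm4a. With spans alone the oxygen difference was 74.9 for Kdm3a, 16.3 for Kdm4a and 24.04 for Kdm4d. At the Kdm3a start, spans alone left out all 20% O2 peaks and the HIF1A replicate 2 summits at 4% O2. The highest HIF1A replicate 1 and ARNT intervals at 4% O2 crossed the gene's end and were kept. At Kdm4d, spans alone left out the ARNT peak at 20% O2. These values therefore do not compare the same sites between oxygen levels. With the 1808 highest peaks it was 0 for Kdm4c and Kdm4d. The causes were not tested.

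With the replicate block the exact permutation p of the oxygen difference was 0.125 for Kdm4b, the smallest possible, and 0.25 for Kdm3a. Deviations of same-numbered samples correlated at -0.0955 to 0.280 between groups over 13224 genes, and no label says that the numbers pair samples. The counts of cores in windows around peak centres were not run, since no genome was used. Unknown depth limits what a missing peak means.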
